A study of Rattus norvegicus with 15 samples.

Results

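Integrins and the proteins of focal adhesions were followed in cultured chondrocytes, the cells of cartilage, from the rat temporomandibular joint (TMJ, the jaw joint). The genes were chosen by name. They are the protein-coding genes whose name starts with Itga or Itgb and a digit, 5 further integrin alpha subunits, and 19 focal adhesion genes from Ptk2 to Tns3. This gave 46 of the 33717 genes in the count table, of which 24 encode integrin subunits and 3, Itgb1bp1, Itgb1bp2 and Itgb3bp, matched by name only and encode no integrin subunit. Of the 46 genes, 42 had enough counts to be tested. Itga9, Itgb2, Itgam and Itgal did not, and Itgad was not analysed here. The rule also leaves out Itgb5, whose row in the count table carries the biotype processed transcript, and its values are given beside the others where they bear on them.

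Total RNA from primary chondrocytes was sequenced in 15 libraries, 3 in each of 5 groups. The groups were a control (labelled nc, with no word on what the cells received), mechanical stress, a control siRNA (si-nc), an siRNA against Ddx5 (si-ddx5), and the Ddx5 siRNA together with mechanical stress. An siRNA is a short RNA that directs the cell to degrade a matching transcript, and Ddx5 encodes an RNA helicase. No group had the control siRNA and stress, the kind and length of the stress are not given in the labels, and it is not stated whether the libraries within a group came from separate animals or cultures. The p-values therefore measure a spread between libraries that may be technical.

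Integrins are receptors made of an alpha and a beta chain that bind the matrix outside the cell and, through talin and kindlin, the actin skeleton inside it. The alpha chain largely sets the ligand: collagens for the products of Itga1, Itga2, Itga10 and Itga11, fibronectin for that of Itga5, and laminins for those of Itga3, Itga6 and Itga7, all of which pair with the beta chain from Itgb1. Focal adhesions are the clusters in which these receptors meet adaptors such as vinculin and paxillin and kinases such as FAK (from Ptk2), and they carry force between matrix and cytoskeleton. In cartilage, integrins are known as receptors for collagen and fibronectin and as part of the way chondrocytes sense load.

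The targeted gene and the cell type were checked in all libraries, which held 14309005 to 16219775 counts each. Ddx5 stood at 207 to 252 CPM (read counts scaled to a common library size by the TMM method) with the Ddx5 siRNA and 164 to 240 CPM with the siRNA and stress, lower than in every library of the other groups. Those ranged from 360 to 398 CPM in the control siRNA group, from 360 to 418 CPM under stress and from 485 to 545 CPM in the control. Of 14 chondrocyte markers, 9 had enough counts to be tested. Acan reached 73.4 to 367 CPM and Col11a1 1280 to 2390 CPM, while Col2a1, the defining cartilage collagen, stayed between 0.326 and 4.49 CPM. All other chondrocyte markers, Sox9 among them, stayed at or below 29.4 CPM, the highest value of Comp. The 9 fibroblast markers summed to 37700 to 43500 CPM in the control and 71500 to 86400 CPM with the control siRNA, Col1a1 alone reaching 29900 to 72800 CPM over all libraries. Of the same list, Dcn stayed at 1.37 to 11.9 CPM, Lum at 1.8 to 7.9 CPM and Fap at 19.5 to 34.9 CPM. Col1a2, Col3a1, Thy1, Pdgfra and Pdgfrb did not fall below 60.3 CPM, the lowest value of Pdgfra. Fibroblastic collagen RNA thus exceeded cartilage collagen RNA in every library. The 14 leukocyte markers summed to 20.9 to 43.9 CPM, of which Cd14 alone gave 16.8 to 41.2 CPM, while the defining marker Ptprc had 1 count over all 15 libraries and Tyrobp, C1qb and C1qc had 0. Replicate 1 of both Ddx5 siRNA groups stood apart from replicates 2 and 3. Without stress, it correlated best with a control siRNA library (Pearson's r = 0.980 in log2 CPM across genes, against 0.969 and 0.965 with the other libraries of its group), and with stress it correlated best with stress replicate 1 (0.973, against 0.960 and 0.958 within its group). Some of the results that rest on these groups are therefore also given without both libraries, an alternative chosen after seeing the data.

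Levels are first described per gene length, as CPM per kilobase, since only these can be set against each other between genes. Itgb1, the beta chain known to pair with most of these alpha chains, ranked highest of all 46 genes in the control, at 443 ± 61.6 CPM per kilobase (SD, n = 3). It was followed by Flna (365 ± 39.7), which encodes the actin crosslinker filamin A, and by the alpha-actinin genes Actn4 (330.3 ± 39.9) and Actn1 (289 ± 34.6). Itga11 was the highest alpha subunit at 184 ± 53.3 CPM per kilobase, ahead of Itga3 (40.2 ± 3.22), Itga5 (32.5 ± 2.47) and Itgav (16.9 ± 3.09). In this order the ranges of mean ± SD overlap between Itgb1 and Flna, between Flna and Actn4, and between Actn4 and Actn1. Itga10, known as a collagen receptor chain typical of chondrocytes, stood at 1.96 ± 1.15 CPM per kilobase, far below Itga11, a collagen receptor chain known from fibroblasts.

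**Figure D1:**
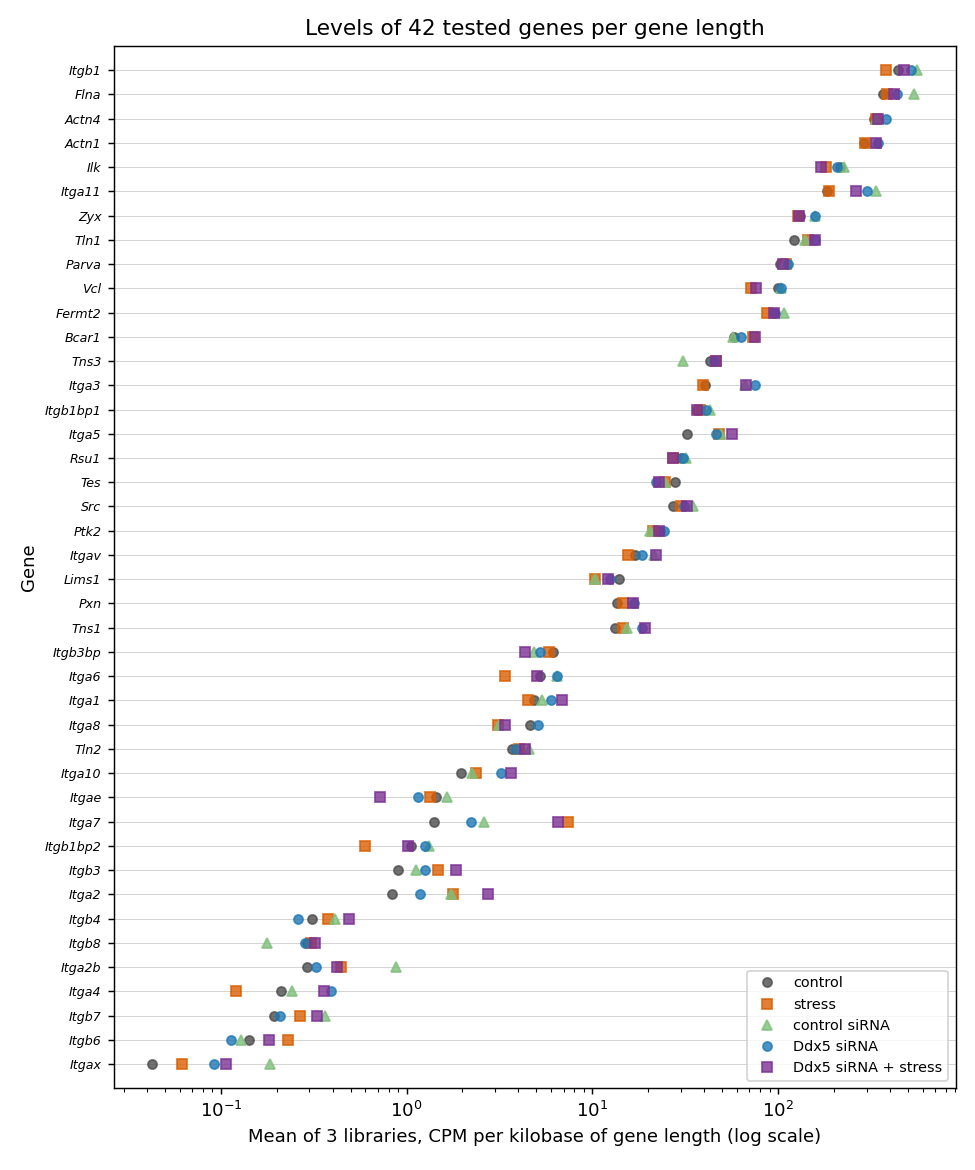
Mean CPM per kilobase of gene length (log scale) of the 42 tested genes, 1 row a gene, with 1 symbol for each of the 5 groups (mean of 3 libraries). Itgb1 lies at the top and Itgax at the bottom, and the stressed groups stand to the right of the others in the Itga7 row.

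Among adaptors, Ilk, which encodes the integrin-linked pseudokinase, reached 214 ± 20.8 CPM per kilobase in the control, and its partners in the same complex were lower, at 103 ± 2.33 for Parva, 30.2 ± 2.55 for Rsu1 and 13.98 ± 1.72 for Lims1. Tln1, the main talin gene, stood at 122 ± 23.7 and its paralog Tln2 at 3.69 ± 1.44. The kinase gene Ptk2 was at 23.2 ± 2.24 and the scaffold gene Pxn, for paxillin, at 13.6 ± 1.99. The 6 integrin subunits known from leukocytes (Itgae, Itgb7, Itgax, Itgb2, Itgam and Itgal) did not exceed 1.64 CPM per kilobase in any group mean. Itgal had no count in 12 of the 15 libraries, and a count of 0 allows up to 3 counts, or 0.21 CPM in the library with the lowest total, by counting error only. Itgam and Itgax overlap on the same strand in the deposited coordinates, as Itga1 does with Pelo and Itgae with 4 other genes, so reads of these could have been assigned to either gene. The strand used in counting is not stated, so reads of Tln1 and Creb3, or of Ilk and Taf10, which overlap on opposite strands, could also mix. This matters most where the neighbour has many counts. Itgb4 had 587 counts over all libraries and Galk1, on the opposite strand, 19656, and Itgb3bp had 1814 and its neighbour Efcab7 1382. Paralog pairs such as Tln1 and Tln2 or Actn1 and Actn4 carry the same doubt to a lesser degree.

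Mechanical stress without siRNA was compared with the control to see which adhesion genes respond to load. One integrin stood out: Itga7, the laminin receptor chain best known from skeletal muscle, rose by 2.40 on the log2 scale. Vcl, for the force-bearing adaptor vinculin, and Itga6, another laminin receptor chain, fell by 0.48 and 0.62. So 3 of the 42 tested genes were called at an adjusted p under 0.05 (7.14%), against 1.41% of all 14147 genes tested. Of these 3, 1 rose, where 1.06% of all genes rose, and 2 fell, where 0.346% of all genes fell. The median log2 fold change of the 42 genes was 0.04 (−0.003 over all genes), 24 values being positive and 18 negative. The 3 libraries of each group did not overlap in 10 of the 42 (23.8%, against 21.7% of all genes), 5 higher under stress (11.9%, against 11.2%) and 5 lower (11.9%, against 10.4%). Of the 42, 9 had an unadjusted p under 0.05 (21.4%, against 15.1%). Changes are given as log2 fold change ± SE, with p adjusted over all genes by the Benjamini-Hochberg method in edgeR's quasi-likelihood test.

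Itga7 (ENSRNOG00000007905, chromosome 7, 3355116 to 3384675, plus strand, as deposited with no build given) had 5.46, 8.90 and 7.003 CPM in the control libraries and 37.2, 50.2 and 25.1 CPM in the stressed ones. The groups did not overlap, and the lowest stressed library lay well above the highest control. The rise passed the test (2.40 ± 0.26 on the log2 scale, adjusted p = 0.00033). It also passed when each of the 6 libraries was omitted in turn, at 2.13 to 2.62 and an adjusted p of 1e-04 to 0.0058. In same-numbered libraries the ratio of stress to control was 6.81, 5.64 and 3.59. The skeletal muscle markers summed to 22.9 to 25.1 CPM in the control and 15.4 to 24.3 CPM under stress. Their sum was thus not higher under stress, but single markers went both ways. Mean Myh1 went from 13.4 to 7.6 CPM, and Acta1, Mylpf and Myod1 also had lower means. Mean Des went from 0.811 to 1.78 CPM, and Tnnt3 and Ckm also had higher means. Myog had 0 counts in all libraries. The part of these markers in the Itga7 rise was not tested. Mettl7b, which overlaps Itga7 on the opposite strand, had 9 counts over all libraries against 4787 for Itga7.

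Vcl (ENSRNOG00000010765, chromosome 15, 3455211 to 3544702, minus strand) had 563, 564 and 515 CPM in the control and 389.6, 416 and 374 CPM under stress. All 3 stressed libraries lay below all 3 controls, with little spread in either group, and the fall passed the test (−0.48 ± 0.10 on the log2 scale, adjusted p = 0.021). Omitting control replicate 1 or 2 took the adjusted p to 0.077 or 0.078, and omitting stress replicate 1 or 3 took it to 0.10 or 0.074, so that Vcl no longer passed. In bulk RNA a lower level can mean fewer cells that carry a transcript or less of it per cell, and these cannot be told apart. Itga6 (ENSRNOG00000001518, chromosome 3, 58443101 to 58515124, plus strand) had 28.02, 33.3 and 32.4 CPM in the control and 15.95, 23.9 and 20.97 CPM under stress. The groups were again separate, and the fall passed (−0.62 ± 0.14 on the log2 scale, adjusted p = 0.04). It did not pass when the model held these 6 libraries alone (adjusted p = 0.106). Nor did it pass on omitting control replicate 1 (0.063), 2 (0.126) or 3 (0.108), or stress replicate 1 (0.166) or 3 (0.086).

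**Figure D2:**
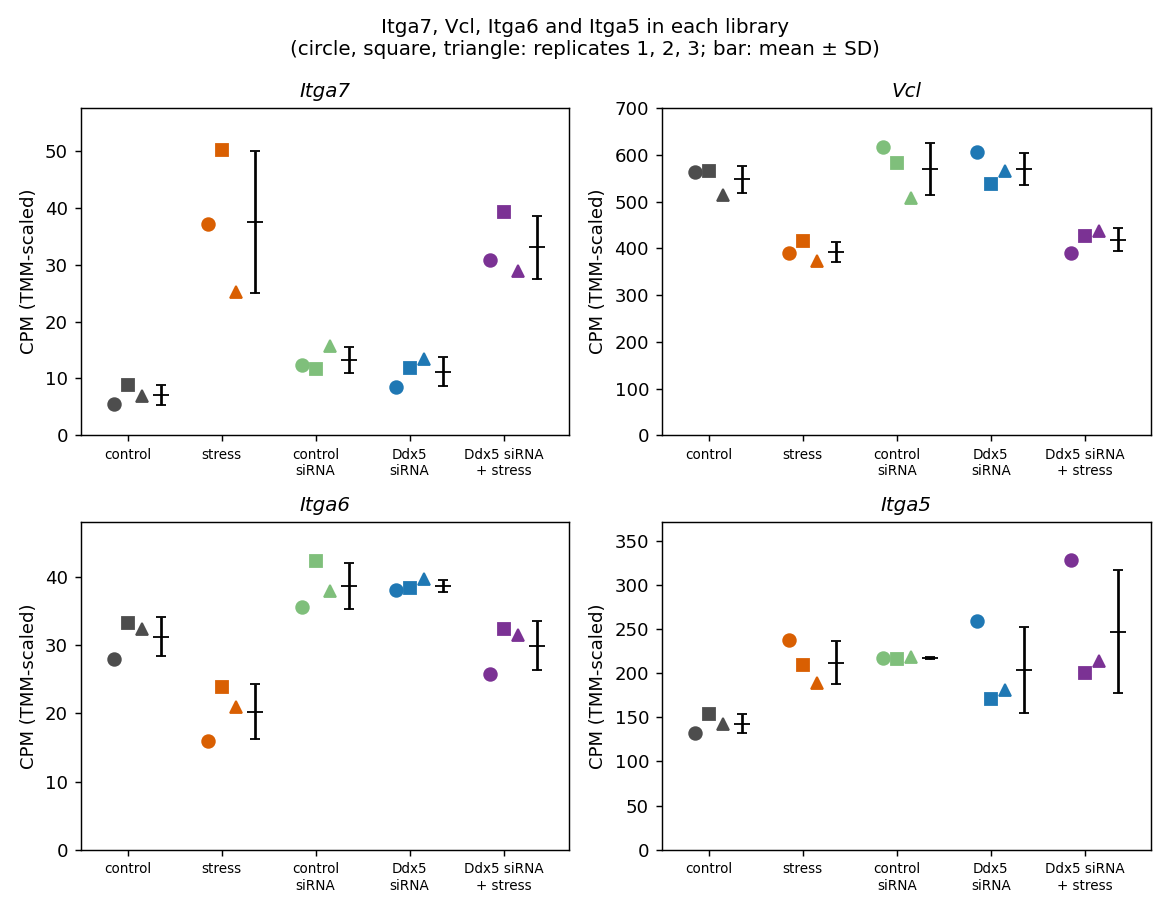
TMM-scaled CPM of Itga7, Vcl, Itga6 and Itga5 in each of the 15 libraries by group, with circles, squares and triangles for replicates 1, 2 and 3 and bars for the mean ± SD. Itga7 is higher and Vcl lower in all 6 stressed libraries than in any unstressed one, while Itga5 is high in replicate 1 of both Ddx5 siRNA groups.

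Of the other laminin receptor chains, Itga3 had 181, 213 and 199 CPM in the control and 210.5, 204 and 166 CPM under stress, which overlap. The fibronectin receptor chain Itga5 had 132, 154 and 142 CPM against 238, 209 and 189 CPM, without overlap, but did not pass (0.57 ± 0.18 on the log2 scale, adjusted p = 0.14). It passed in a model of these 6 libraries alone (adjusted p = 0.046, or 0.0014 once the replicate number was a block). Itgav, the alpha chain of vitronectin receptors, had 53.2, 66.2 and 46.3 CPM against 46.3, 69.96 and 36.3 CPM, a wide overlap. Of its beta partners, Itgb3 went from 2.73, 2.27 and 1.44 CPM to 4.44, 2.30 and 3.90 CPM at low counts and did not pass (0.72 ± 0.32). Itgb5, another partner, had 424, 546 and 412 CPM against 434, 516 and 379 CPM, which overlap (−0.06 ± 0.15 on the log2 scale, adjusted p = 0.903).

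The 4 collagen receptor chains gave no call under stress. Itga11 had 628, 1115 and 805 CPM in the control and 918, 1039 and 643 CPM under stress, a spread within each group larger than the difference between them. Itga1 had 21.96, 24.7 and 14.4 CPM against 16.8, 27.6 and 12.3 CPM, and Itga10 had 11.6, 14.6 and 3.41 CPM against 16.2, 14.9 and 4.60 CPM. In both, replicate 3 was the lowest library of its group. Itga2 had 2.08, 4.81 and 2.75 CPM against 4.87, 12.2 and 3.40 CPM, highest in stress replicate 2, and did not pass (1.09 ± 0.43). Without that library the value was 0.37 ± 0.35 (adjusted p = 0.692). The shared beta chain Itgb1 had 1852, 1612 and 1402 CPM against 1432, 1459 and 1285 CPM, which overlap, and did not pass (−0.22 ± 0.12).

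Inside the cell, vinculin was the only called component under stress. Tln1, whose product activates integrins and recruits vinculin, had 819.6, 1183 and 1166 CPM in the control and 1205, 1317 and 1231 CPM under stress. The groups were separate but control replicate 1 lay far below the other controls, and the difference did not pass (0.24 ± 0.12 on the log2 scale, adjusted p = 0.37). Zyx, for zyxin, which is known to move to sites of tension, had 311, 348 and 347 CPM against 366, 319.5 and 295 CPM, which overlap. Actn1 had 987, 1249 and 1081 CPM against 1087, 1254 and 1019 CPM and Flna 2751, 3417 and 3049.8 CPM against 3183, 3564 and 3029.6 CPM, both overlapping widely. Ptk2, for the kinase FAK, had 74.9, 90.1 and 87.4 CPM against 67.8, 81.7 and 82.6 CPM. Pxn had 45.6, 59.3 and 47.5 CPM against 56.1, 55.7 and 51.7 CPM. The group ranges overlapped for both of these signalling genes, and none of the 4 kinase and scaffold genes passed, their log2 fold changes lying between −0.12 and 0.33.

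The libraries of the stress comparisons deviated together by replicate number, so fits with that number as a block were also made. With the Ddx5 siRNA this was less clear. There the deviations of stressed replicate 2 correlated better with an unstressed library of another number than with its own (0.252). With the block in a fit of all libraries the same 3 genes were called, a count given here without the share of all genes in that fit. When the model held the block and these 6 libraries alone, 10 of 40 tested were called (25%), 4 higher and 6 lower, against 12.5% of all genes tested in that fit. These 10 included the former 3, with Itga5, Itga2 and Bcar1, a scaffold of FAK and Src, as further higher genes, and Ilk, Itga8, Itgb1 and Lims1 as further lower ones.

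The stress response was then examined in cells with the Ddx5 siRNA, where no library is shared with the comparison above. Itga7 and Vcl were again the calls, 2 of 42 (4.76%) against 1.19% of all genes tested (1.05% higher and 0.141% lower). Itga7 had 8.46, 11.9 and 13.4 CPM with the siRNA alone and 30.9, 39.4 and 28.9 CPM with added stress, again without overlap (1.56 ± 0.25 on the log2 scale, adjusted p = 0.0055). The ratio of same-numbered libraries was 3.65, 3.32 and 2.16. Itga7 still passed when each of the 6 libraries was omitted in turn (adjusted p from 0.010 to 0.038), but not when the model held these libraries alone (0.066). The skeletal muscle markers summed to 23.3 to 44.9 CPM without and 17.6 to 29 CPM with stress. Single markers again went both ways, mean Myh1 from 16.3 to 9.16 CPM and mean Des from 1.28 to 1.9 CPM. Of the 42 genes, 9 had an unadjusted p under 0.05 (21.4%, against 11.1% of all genes). The groups did not overlap in 12 (28.6%, against 15.3%), 5 of them higher with stress (11.9%, against 8.72%) and 7 lower (16.7%, against 6.54%).

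Vcl had 606, 537 and 565 CPM with the Ddx5 siRNA and 389.9, 427 and 437 CPM with added stress. The groups were separate and the fall passed (−0.45 ± 0.10 on the log2 scale, adjusted p = 0.032). It did not pass when any 1 library was omitted. The adjusted p was then 0.088, 0.078 and 0.101 for Ddx5 siRNA replicates 1, 2 and 3, and 0.11, 0.064 and 0.053 for the stressed replicates 1, 2 and 3. Nor did it pass when the model held these 6 libraries alone (0.229). Without replicate 1 of both groups, Itga7 remained called (adjusted p = 0.039) and Vcl was not (−0.35 ± 0.10, adjusted p = 0.171). Itga6 had 38.1, 38.3 and 39.7 CPM against 25.8, 32.4 and 31.5 CPM, separate groups whose difference did not pass (−0.37 ± 0.14 on the log2 scale, adjusted p = 0.29). With the replicate block and these 6 libraries alone, 10 of 41 tested genes were called (24.4%, against 7.3% of all genes in that fit), 4 higher and 6 lower, Vcl, Itga6 and Itga7 among them.

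For a sequence view, the promoter of Vcl, the gene that fell in both stress comparisons, is shown from RefSeq in build GRCr8 (chr15:3404751-3405050, minus strand), from 250 bases before to 50 bases after the annotated start. Such windows were matched for 35 of the 46 genes, and no window was matched for Itga7 or Itga6. The letters searched on both strands were the TEAD element GGAATG, the AP-1 element TGANTCA, the hypoxia element core ACGTG, the GC box GGGCGG and the CArG box, the element bound by SRF. Capitals mark the matches.
Vcl: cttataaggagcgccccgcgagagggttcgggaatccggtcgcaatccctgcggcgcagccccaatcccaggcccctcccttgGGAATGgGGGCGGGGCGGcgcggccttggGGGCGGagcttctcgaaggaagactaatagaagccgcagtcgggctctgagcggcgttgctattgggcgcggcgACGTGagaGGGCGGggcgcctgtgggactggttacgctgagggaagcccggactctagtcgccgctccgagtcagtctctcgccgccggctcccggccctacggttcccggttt
The Vcl window held a TEAD element, 4 GC boxes, of which the one starting 160 bases and the one starting 155 bases before the start share a base, and 1 hypoxia core starting 64 bases before the start. Of all 27457 windows of this length, 13.9% held the TEAD element, 34.9% the GC box, 19.7% the hypoxia core, 7.33% the AP-1 element and 1.64% the CArG box. Among the 35 windows these letters were found in 10, 20, 3, 1 and 2. A match is a description of the letters only.

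The size of the Itga7 response was compared between cells with and without the Ddx5 siRNA. It differed by −0.84 on the log2 scale (SE 0.35), smaller with the siRNA, at an unadjusted p of 0.031 by edgeR that did not pass over all genes (adjusted p = 0.999). Before stress Itga7 stood at 7.12 ± 1.72 CPM (SD) in the control and 11.2 ± 2.51 CPM with the Ddx5 siRNA, and the ranges of the stressed groups overlapped. The control siRNA group, which has no stressed counterpart, stood at 13.2 ± 2.21 CPM. So the comparison of responses also differs in the presence of an siRNA, and the effect of Ddx5 cannot be told apart from it. In this test of the difference edgeR called 0 of the 42 genes and 0 of all genes (0%), with 1 of the 42 (Itga7) and 3.12% of all genes at an unadjusted p under 0.05. DESeq2 also called 0 of the 42, and 4 of all genes. For Vcl the responses differed by 0.03 (SE 0.13) and for Itga6 by 0.25 (SE 0.20). Over the 42 genes, which share libraries and are not independent, 31 had the same sign in both responses. Pearson's r was 0.85 with Itga7 and 0.78 without it. These values were not computed over all genes, so they are not shown to be particular to the 42.

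**Figure D3:**
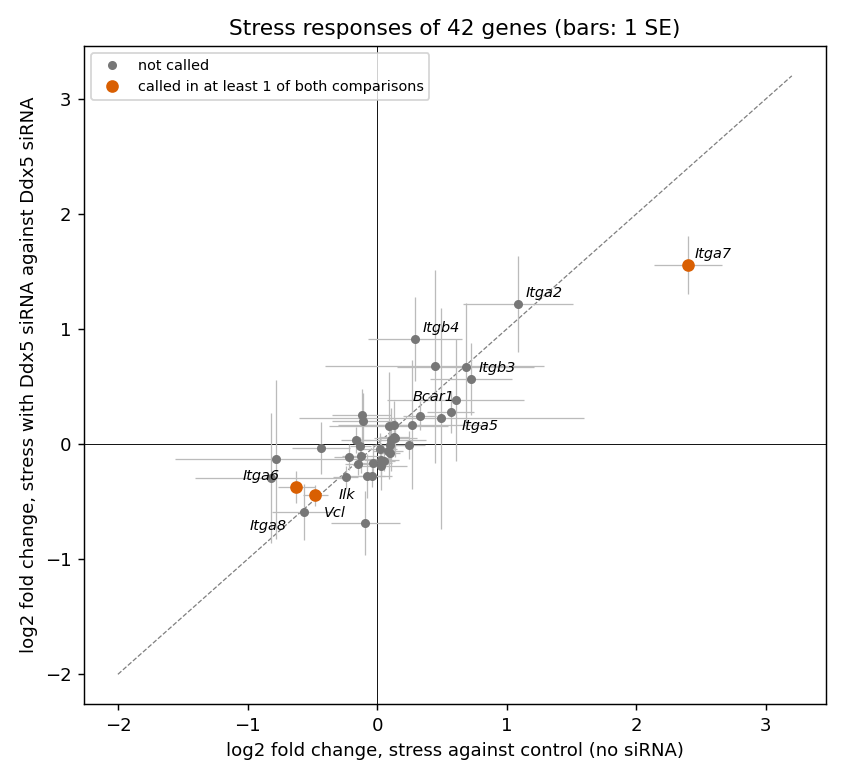
Log2 fold changes of the 42 tested genes under stress without siRNA (x axis) and with the Ddx5 siRNA (y axis), with bars of 1 SE and a dashed line of equality. Itga7 lies far to the right of all others and below the line, at 2.40 and 1.56, and Vcl lies close to it at −0.48 and −0.45.

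The makeup of the integrin alpha transcripts was followed as each chain's share of the summed CPM per kilobase of all 17 alpha subunits. Itga11 held most of this pool in every library, with 61.7% ± 5.15 (SD, n = 3) in the control and 59.2% ± 2.14 under stress. The share of Itga7 was 0.446%, 0.483% and 0.497% in the control and 2.19%, 2.70% and 2.03% under stress. It was 0.310%, 0.571% and 0.589% with the Ddx5 siRNA and 1.23%, 1.92% and 1.39% with added stress. So Itga7 remained a minor chain, although each of the 6 stressed libraries held a larger share than any of the 9 others. The share of Itga5 was 12.5%, 9.65% and 11.6% in the control and 16.1%, 12.96% and 17.6% under stress, without overlap. Of the 7 protein-coding beta subunits, Itgb1 made up 99.3% to 99.6% of the summed level in each group mean. That share leaves out Itgb5, which stood at 118 ± 19.1 CPM per kilobase in the control. With Itgb5 added as an eighth chain, an alternative chosen after seeing the data, Itgb1 made up 74.7% to 85.1% of the sum over the 15 libraries and Itgb5 14.5% to 24.9%.

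**Figure D4:**
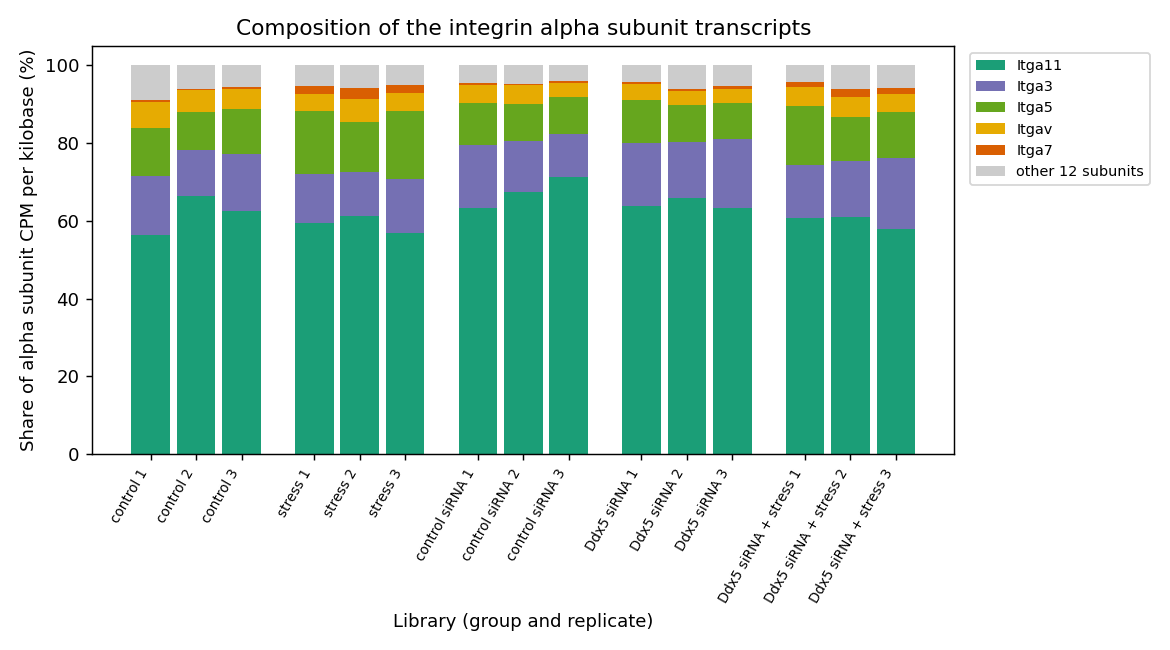
Share (%) of each integrin alpha chain in the summed CPM per kilobase of 17 alpha subunits, 1 bar a library. Itga11 fills most of every bar, and the Itga7 band is widest in the stressed libraries, with group means of 2.31% and 1.51% against 0.475% to 0.525% elsewhere.

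The control siRNA was set against the control without siRNA to see what the transfected cells differ in before any knockdown. Itga3, Itga11 and Flna rose, 3 of 42 (7.14%), where 3.87% of all genes tested were called and 2.1% rose. None of the 42 fell, against 1.77% of all genes. The median log2 fold change of the 42 genes was 0.22 (−0.003 over all genes), with 33 positive values. In 15 of them every control siRNA library lay above every control library (35.7%, against 16% of all genes), and in 2 below (4.76%, against 15.4%), together 17 (40.5%, against 31.4%). At an unadjusted p under 0.05 there were 15 (35.7%, against 20.5%).

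Itga3 (ENSRNOG00000004276, chromosome 10, 82855613 to 82887497, minus strand), a laminin receptor chain, had 181, 213 and 199 CPM in the control and 368, 326 and 281 CPM with the control siRNA (0.72 ± 0.15 on the log2 scale, adjusted p = 0.016). With the Ddx5 siRNA it had 424, 289.8 and 390.2 CPM, and with added stress 331, 289 and 367 CPM. Thus all 9 libraries with an siRNA lay above all 6 without one, stressed or not. Against the control, Itga3 no longer passed on omitting control replicate 1 (adjusted p = 0.068) or 3 (0.064), or on omitting control siRNA replicate 1 (0.085) or 2 (0.061). Itga11 (ENSRNOG00000006723, chromosome 8, 67615635 to 67683973, plus strand) had 1359, 1587 and 1708 CPM with the control siRNA, all above the control (0.87 ± 0.20 on the log2 scale, adjusted p = 0.031). It had 1588, 1249 and 1310.4 CPM with the Ddx5 siRNA and 1394, 1142 and 1092 CPM with added stress. Itga11 no longer passed on omitting control replicate 1 (adjusted p = 0.10) or 3 (0.119), or any of control siRNA replicates 1 (0.063), 2 (0.098) and 3 (0.12).

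Flna (ENSRNOG00000054890, chromosome X, 156463953 to 156487245, plus strand) had 4568, 4691 and 4416 CPM with the control siRNA, again all above the control (0.57 ± 0.11 on the log2 scale, adjusted p = 0.014). Omitting control replicate 1 or 3 moved its adjusted p to 0.064 or 0.063, and omitting control siRNA replicate 1 or 2 moved it to 0.06 or 0.069, where it did not pass. It had 4195, 3305 and 3576 CPM with the Ddx5 siRNA and 3706, 3406 and 3493 CPM with added stress. Of these 6 libraries, 4 lay between the control and the control siRNA ranges and 2 within the control range. Itga7 had 12.3, 11.6 and 15.8 CPM with the control siRNA, above each control library, and did not pass (0.90 ± 0.26 on the log2 scale, adjusted p = 0.068). Nor did Itga5, at 217, 216 and 218 CPM (0.60 ± 0.18 on the log2 scale, adjusted p = 0.077), or Itgb1, at 2089, 2137 and 1934 CPM (0.34 ± 0.12 on the log2 scale, adjusted p = 0.12). The sum of the fibroblast markers given above was also higher in every control siRNA library than in any control, most of it Col1a1, while 3 of the 9 markers (Pdgfra, Pdgfrb and Dcn) had lower means there. The chondrocyte markers summed to 1730 to 2220 CPM in the control and 2320 to 2740 CPM with the control siRNA, and the Schwann cell and neuron markers to 37.0 to 51.2 CPM and 56.9 to 71.3 CPM. The part of these markers in the differences was not tested. DESeq2, edgeR with the replicate block and edgeR on these 6 libraries alone each called 7 genes, with Itga3, Itga11, Flna, Itga5, Itga7 and Itga2b in each. These were 17.1%, 16.7% and 17.9% of the genes tested among the 46, against 7.95%, 8.29% and 10.4% of all genes in the same fits.

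**Figure D5:**
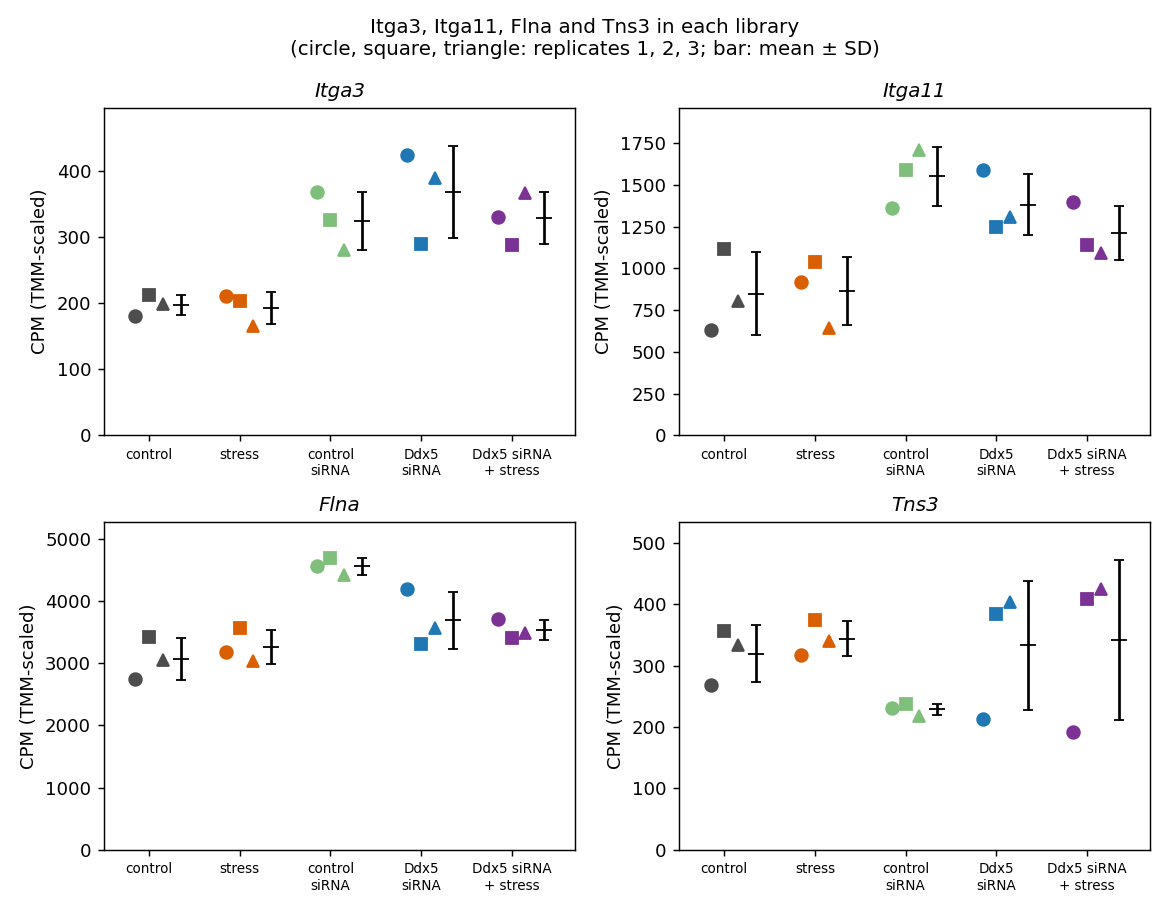
TMM-scaled CPM of Itga3, Itga11, Flna and Tns3 in each of the 15 libraries by group, with circles, squares and triangles for replicates 1, 2 and 3 and bars for the mean ± SD. Itga3 is higher in every library with an siRNA than in any without, and Tns3 is low in the control siRNA libraries and in replicate 1 of both Ddx5 siRNA groups.

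Because Flna, Itga3 and Itga11 moved together here, their RefSeq windows (GRCr8) are shown with the same marks, Flna at chrX:157182294-157182593, minus strand, Itga3 at chr10:80518852-80519151, minus strand and Itga11 at chr8:72041182-72041481, plus strand.
Flna: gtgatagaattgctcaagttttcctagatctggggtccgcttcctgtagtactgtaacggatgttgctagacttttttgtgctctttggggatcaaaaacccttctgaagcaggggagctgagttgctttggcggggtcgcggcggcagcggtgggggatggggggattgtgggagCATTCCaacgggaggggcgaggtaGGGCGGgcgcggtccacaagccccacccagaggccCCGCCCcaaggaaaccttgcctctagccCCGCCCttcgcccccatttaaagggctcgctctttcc
Itga3: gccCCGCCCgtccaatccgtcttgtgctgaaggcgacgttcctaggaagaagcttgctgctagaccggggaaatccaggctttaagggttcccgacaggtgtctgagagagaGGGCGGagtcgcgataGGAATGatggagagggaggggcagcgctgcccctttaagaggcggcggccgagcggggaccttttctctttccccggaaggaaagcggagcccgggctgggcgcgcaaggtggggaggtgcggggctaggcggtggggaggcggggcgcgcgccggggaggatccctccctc
Itga11: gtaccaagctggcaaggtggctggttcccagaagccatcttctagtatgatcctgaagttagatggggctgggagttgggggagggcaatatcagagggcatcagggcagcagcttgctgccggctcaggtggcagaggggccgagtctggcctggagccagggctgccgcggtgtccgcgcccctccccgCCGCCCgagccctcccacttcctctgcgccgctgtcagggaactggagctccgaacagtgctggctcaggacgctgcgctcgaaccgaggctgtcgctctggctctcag
The Flna window held 1 TEAD element and 3 GC boxes, the Itga3 window 1 TEAD element and 2 GC boxes, and the Itga11 window 1 GC box. The AP-1, hypoxia and CArG letters were not in these 3 windows.

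The Ddx5 siRNA was compared with the control siRNA to see what the knockdown itself changed in adhesion genes. No gene of the 42 was called by edgeR, against 0.396% of all genes, and 3 (Itga8, Itga2b and Flna) had an unadjusted p under 0.05 (7.14%, against 15.5% of all genes). DESeq2 called none of the 42 either, which is given here without the share of all genes it called and so cannot be set against it. The groups did not overlap in 7 (16.7%, against 23.9%), 3 higher (7.14%, against 10.6%) and 4 lower (9.52%, against 13.2%). Flna had the values above and a log2 fold change of −0.30 (SE 0.11, adjusted p = 0.21). Set against the control without siRNA instead, it was 0.27 (SE 0.11), so its direction depends on the reference group. Itga2b, the platelet fibrinogen receptor chain, likewise went from −1.44 (SE 0.52) to 0.16 (SE 0.54), at 0.496 to 4.57 CPM. Itga8, a chain that binds matrix proteins with an RGD motif, had 18.5, 20.5 and 16.4 CPM in the control siRNA libraries against 31.5, 30.3 and 28.05 CPM in those with the Ddx5 siRNA, separate groups whose difference did not pass (0.70 ± 0.24 on the log2 scale, adjusted p = 0.19). The control without siRNA had 35.6, 25.4 and 20.2 CPM, a range that overlaps that with the Ddx5 siRNA. Against that control, the control siRNA gave −0.56 ± 0.24 on the log2 scale by edgeR (adjusted p = 0.22). So the Itga8 difference also depends on the reference group.

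Replicate 1 mattered here. Tns3, for tensin 3, an adaptor between integrins and actin, had 212, 384 and 404 CPM with the Ddx5 siRNA and 192, 408 and 425 CPM with added stress. The control siRNA libraries had 231, 237 and 219 CPM and the control 269, 357 and 334 CPM. Replicate 1 of each Ddx5 siRNA group thus lay below all of these, and replicates 2 and 3 above all of them. With replicate 1 of both groups left out, 4 of the 42 genes were called for the Ddx5 siRNA (9.52%, against 13.4% of all genes in that fit), Tns3 (0.78 ± 0.11, adjusted p = 0.00034) and Ptk2 higher and Flna and Itga2b lower. Ptk2 had 77.9, 74.01 and 72.2 CPM in the control siRNA libraries against 71.95, 87.9 and 106 CPM in those with the Ddx5 siRNA. Vcl had 616, 583 and 508 CPM with the control siRNA and Itga6 35.6, 42.4 and 38.00 CPM, ranges that overlap those given above for the Ddx5 siRNA alone.

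Of the remaining genes followed in every library, several varied among the siRNA groups without a call. Itgav had 70.7, 79.2 and 60.3 CPM in the control siRNA group, 76.2, 48.9 and 55.5 CPM with the Ddx5 siRNA and 82.8, 69.5 and 62.7 CPM with added stress. Itgb1 had 2113, 1765 and 1793 CPM and 1883, 1648 and 1717 CPM in the latter groups, and Itga5 had 259.6, 170.4 and 181 CPM and 328, 200.1 and 214 CPM. In all 3 of these genes replicate 1 was the highest library of both Ddx5 siRNA groups. So it was for Pxn, with 62.2, 66.3 and 60.04 CPM in the control siRNA, 74.5, 50.9 and 61.2 CPM in the Ddx5 siRNA and 69.7, 53.7 and 62.4 CPM in the Ddx5 siRNA plus stress group.

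In the same order of groups, Itga1 had 23.6, 25.03 and 18.1 CPM, 25.9, 22.8 and 26.5 CPM and 27.9, 29.5 and 28.9 CPM. Itga2 had 7.25, 8.49 and 4.30 CPM, 5.02, 3.72 and 4.93 CPM and 8.86, 12.1 and 10.9 CPM, the stressed libraries lying above the others. Itga10 had 7.25, 12.3 and 14.5 CPM, 8.85, 23.9 and 15.99 CPM and 12.4, 21.3 and 21.2 CPM, with replicate 1 lowest in each. Collagen receptor chains other than Itga11 thus stayed at or below 29.5 CPM in all libraries. Itgb3 had 2.74, 2.39 and 2.91 CPM, 3.63, 2.61 and 2.75 CPM and 3.06, 5.42 and 4.80 CPM, all low.

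Among the intracellular genes, Tln1 had 1163, 1222 and 1240.0 CPM in the control siRNA group, 1255, 1394 and 1474 CPM with the Ddx5 siRNA and 1320.3, 1342 and 1434 CPM with added stress. Zyx had 435, 399.8 and 384 CPM, 377, 409 and 424 CPM and 325, 317 and 357 CPM. Its values with added stress all lay below those with the siRNA alone, but the difference did not pass (−0.28 ± 0.10 on the log2 scale, adjusted p = 0.26). Actn1 had 1353, 1371 and 1157 CPM, 1208, 1289 and 1453 CPM and 1063, 1324 and 1451 CPM, and Ptk2 had 65.9, 93.1 and 88.7 CPM in the last group. In Actn1 and Ptk2 replicate 1 was the lowest library of both Ddx5 siRNA groups.

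Under stress, the Ddx5 siRNA was compared with stress alone, a comparison that also differs in the presence of an siRNA. No gene of the 42 was called by edgeR (0.0283% of all genes were, 0.00707% higher and 0.0212% lower), while 9 of 42 had an unadjusted p under 0.05 (21.4%, against 11.6% of all genes) and DESeq2 called 2 (4.88%, against 1.19% of all genes), Itga3 and Itga6, both higher. The libraries of the 2 groups did not overlap in 12 genes (28.6%, against 14.9% of all genes), 9 of them higher with the siRNA (21.4%, against 7.56%) and 3 lower (7.14%, against 7.34%). Itga3 had the lowest adjusted p, at 0.77 ± 0.15 (adjusted p = 0.073), and passed without replicate 1 of both Ddx5 siRNA groups (0.038). Its rise with the control siRNA, given above, was of like size (0.72). For Itga6 the difference was 0.56 ± 0.14 (adjusted p = 0.17, and 0.045 without those libraries).

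Other genes of the pathway were read from lists of focal adhesion and ligand genes. Of 54 tested focal adhesion proteins outside the 46 genes, 1 rose and 1 fell under stress, where 1.06% of all genes rose and 0.346% fell. Lims2, which encodes the second PINCH adaptor of the ILK complex, rose from 25.8 ± 2.13 to 45.4 ± 8.45 CPM (means ± SD), a change of 0.82 ± 0.19 (adjusted p = 0.044). Its paralog Lims1 did not pass (−0.43 ± 0.23). Cav1, for the caveola coat protein caveolin 1, fell by 0.60 (SE 0.11). Of 35 tested integrin ligands 3 rose under stress, where 1.06% of all genes did. They were the leukocyte ligands Icam1 and Vcam1 and the elastic fibre glycoprotein gene Emilin1. Emilin1 went from 536 ± 32.6 to 887 ± 123 CPM, a change of 0.73 ± 0.12 (adjusted p = 0.0048). With the Ddx5 siRNA, Icam1 and Vcam1 again rose and Emilin1 did not pass (0.45 ± 0.12, adjusted p = 0.082).

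More of these genes differed between the control siRNA and the control, as did more of all genes (3.87%, against 1.41% under stress). Of the 35 ligands 9 rose and 3 fell against the control, where 2.1% of all genes rose and 1.77% fell. Spp1, for the integrin ligand osteopontin, rose from 793 ± 146 to 1866 ± 244 CPM, a change of 1.23 ± 0.18 (adjusted p = 0.0019), and Mfge8, an RGD protein gene, by 0.59 (SE 0.10). The fibronectin gene Fn1, which encodes the ligand of the Itga5 chain, rose by 0.76 (SE 0.19) and is named after its values were seen. Col6a1, a collagen VI chain gene, rose by 0.57 (SE 0.13), while Icam1 fell by 0.66 (SE 0.12). Of the 54 focal adhesion proteins 4 rose and 4 fell (2.1% and 1.77% of all genes did). Fyn, a Src family kinase gene, rose by 0.71 (SE 0.14) and Flnc, a filamin gene, by 0.87 (SE 0.18). Nedd9, a paralog of Bcar1, fell by 0.74 (SE 0.15) and Pak1, a kinase gene, by 0.46 (SE 0.10).

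Apart from Itga7, Vcl, Itga6, Itga3, Itga11 and Flna, none of the 42 tested genes was called in any of the 6 comparisons. Those matched by name only were Itgb1bp1, for a protein that binds the tail of the Itgb1 chain, at 47.9 ± 1.54 CPM in the control, Itgb3bp, for a centromere protein, at 8.95 ± 0.522 CPM, and Itgb1bp2, for the muscle protein melusin, at 1.35 ± 0.293 CPM. Parva and Fermt2, for a parvin and a kindlin, varied little. Their group means ran from 438 to 479 CPM and from 285 to 351 CPM. Itgb4, Itgb6, Itgb8, Itga2b, Itga4 and Itgb7 had group means of at most 3.34 CPM. Group means of the tensin gene Tns1 ran from 81.3 to 118 CPM, those of Src, a kinase gene, from 96.03 to 123 CPM, and those of the scaffold gene Bcar1 from 192 to 251 CPM. The actin crosslinker gene Actn4 ran from 1316 to 1512 CPM, Ilk from 296 to 393 CPM and Tln2 from 29.1 to 35.8 CPM. Rsu1 ran from 22.6 to 26.6 CPM, Lims1 from 17.9 to 24.1 CPM, Tes, for the zyxin partner testin, from 52.3 to 65.5 CPM, and Itgae from 2.84 to 6.49 CPM.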

How the data were processed

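Raw counts of reads for each gene in the 15 libraries, with names, positions, lengths and biotypes, were deposited by the authors, per the file headers. Aligner, counter, strand setting, build and annotation were not stated (not given in the sources used here). A deposited FPKM table was not used. Library totals ran from 14309005 to 16219775 counts. Genes with low counts were removed (filterByExpr by group), leaving 14147 of 33717, libraries were scaled by TMM, and edgeR 4.0.16 (R 4.3.3) fitted all 15 libraries by group. The quasi-likelihood test was adjusted by the Benjamini-Hochberg method over all genes tested, with calls at an adjusted p under 0.05. SEs come from the fold change and F statistic. The test was also run on simulated counts.

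The genes and lists were chosen with earlier results of these data known. Values in each library are given for every gene called in the main comparisons and for preset genes. Tns3 and Itga8 were added after their values were seen. For these genes and for the preset Itgb5, the text does not give the libraries of every group. Of each list up to 4 genes with the lowest adjusted p are named. A further gene list is not reported here.

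Libraries within a group differed by more than sampling noise (chi-square per degree of freedom 7.6 to 62.75). Replicate numbers, shared in the labels, were taken to pair libraries where all 3 pairs of deviations from the group means correlated above 0.1, as for stress against control (0.27 to 0.40) and stress with the Ddx5 siRNA (0.25 to 0.59). Promoter windows are from RefSeq. Alternatives were RLE scaling, DESeq2 1.42.0, no filter, fewer groups, the replicate block, another reference group and leaving out libraries. Shares called in DESeq2 are of genes with an adjusted p.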

Additional observations from a re-analysis of the deposited data

How the results depend on the processing

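Of the 46 genes, 3 were called for stress against control, where 1.41% of all genes were. There were 1 to 3 with a library left out, and 10 in a fit of only the groups compared with the replicate block (12.5% of all genes). For stress with the Ddx5 siRNA the count was 2 (1.19% of all genes). It was 1 with each library left out in turn, 1 without replicate 1 of both Ddx5 siRNA groups (1.03%), 0 in a fit of only the groups compared (0.17%) and 10 when that fit had the replicate block (7.3%). For the control siRNA against the control it was 3 (3.87%), and 0 to 3 with a library left out. DESeq2 gave 7 (7.95%), the replicate block 7 (8.29%), only the groups compared 7 (10.4%) and both together 13 (11.8%). For the Ddx5 siRNA against the control siRNA it was 0 (0.396%), and 4 without replicate 1 of both Ddx5 siRNA groups (13.4%). For the Ddx5 siRNA with stress against stress it was 0 (0.0283%), 2 in DESeq2 (1.19%), 1 without the filter (0.0739%), 2 with the replicate block (0.212%) and 2 without both replicate 1 libraries (1.12%). The difference between the stress responses gave 0 under every alternative run. Outside the stress comparisons the replicate numbers did not pass the pairing check, so the blocked counts there only show the effect of the extra term. Counts with a library left out are given without the share of all genes in those fits, so they cannot be set against it.

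Of the recomputed fold changes of single genes, 511 kept their direction and side of the threshold, 38 newly passed, 32 no longer passed and 2 reversed: against the control without siRNA, the Ddx5 siRNA gave a log2 fold change of 0.27 for Flna and 0.16 for Itga2b. The causes were not tested. Under RLE scaling the median log2 fold changes of all genes lay between −0.01 and 0.02. Depth limits the low integrin chains, and 3 libraries a group limit all tests.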
